A study of Caenorhabditis elegans with 12 samples.

Results

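The comparison described here sets hrde-2 mutant against control Caenorhabditis elegans while both were fed a trigger of RNA interference (RNAi) against the oma-1 gene. It covers 6 of the 12 samples of the series: 3 of hrde-2(gg517) animals and 3 of control animals, all fed bacteria that make oma-1 double-stranded RNA (dsRNA). The mutant strain, YY1192, has the genotype hrde-1(gg594);hrde-2(gg517), and the control strain, YY1312, has hrde-1(gg594) alone. The gg594 allele is thus shared by both groups, although the sample titles call the control wild-type, and the labels do not say what gg594 changes. The other 6 samples are the same strains on bacteria with L4440, the vector with no worm insert. All were adult whole animals grown at 20 °C, with reads counted at 46726 annotated features. Each group of 3 samples was deposited as 1 column of counts, so that no difference below has a replicate check or a test. Intervals are exact 95% intervals that cover counting error only. The libraries of the hrde-2 strain carried 1 barcode at the 5′ end and those of the control strain another, on both foods, so that genotype and 5′ barcode cannot be told apart.

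In worms, dsRNA taken up from food is cut into primary small interfering RNAs, which lead RNA-dependent RNA polymerases to make many secondary antisense small RNAs, the 22G RNAs, on the matching mRNA. Argonaute proteins load these RNAs. HRDE-1 is the Argonaute that carries them into germline nuclei, where they direct heritable silencing, and HRDE-2 is a protein needed for that inheritance. The same Argonautes also carry endogenous small RNAs against many germline genes, so that small RNAs against a fed trigger and those against endogenous targets draw on a shared machinery. oma-1 encodes a zinc-finger protein of maturing oocytes and is a common reporter of inherited RNAi. A read counted at a protein-coding gene is a small RNA from that locus and not a measure of its mRNA.

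Gene-assigned reads numbered 16057238 in the hrde-2 column and 34238988 in the control column, which is 34.8% of all reads listed in hrde-2 and 40.1% in control. Structural RNAs hold most of them, so levels are given in CPM, counts set to a common library size, after scaling by the trimmed mean of M values (TMM). Features entered the comparison if the higher of the 2 columns reached 5 CPM, which is 109 reads in hrde-2 and 114 reads in control, and a feature was called higher or lower at 2-fold. The scaling sets every level: gene-assigned totals alone would move all log2 differences up by 1.03, and the authors' own factors by 0.56. Reads at hrde-2 itself numbered 14 in the hrde-2 strain and 13 in the control, and small RNA reads do not check the gg517 genotype. The oma-1 reads followed the feeding labels in both strains.

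Small RNAs against the trigger were abundant in both strains and about 2 times fewer in hrde-2 animals by the TMM scale. oma-1 (IV:8888976-8890999, plus strand) had 5250 reads in hrde-2 animals and 10881 reads in control animals. That is 241 CPM (234 to 247) in hrde-2 and 478 CPM (469 to 487) in control, a ratio of 0.504 (0.487 to 0.521) and a log2 difference of -0.99. Feeding L4440 left 148 reads in hrde-2 and 37 reads in control, or 2.22 CPM in hrde-2 and 2.26 CPM in control, a ratio of 0.982 (0.681 to 1.45). By the TMM scale the 2 strains thus had near-equal levels at oma-1 without the trigger, and both stood far above that level with it. The direction with the trigger depends on the scaling: the log2 difference was -0.43 with the authors' factors and 0.04 with gene-assigned totals alone. The near-equal levels on L4440 depend on it too. The authors' factors there were 2.33 in hrde-2 and 1 in control, and gene-assigned reads numbered 39077097 in hrde-2 and 25323188 in control. With either of these, hrde-2 would have the higher level at oma-1 on L4440.

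The trigger gene was among the most heavily covered loci of both strains. Per kilobase of its 1801 bp of exons it had 134 CPM in hrde-2 and 265 CPM in control, against medians of 0.31 in hrde-2 and 0.27 in control over all 18899 protein-coding genes with no mark for reads shared with other genes. Those levels placed it at rank 17 in hrde-2 and rank 19 in control. On L4440 its ranks were 2375 in hrde-2 and 2633 in control. It took up 0.823% of the reads at these genes in hrde-2 and 1.34% in control.

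The difference at oma-1 was within the range of its peers. It lay at percentile 25.1 of the 1041 protein-coding genes that could be compared and carry no mark for shared reads, whose median log2 difference was -0.29. Of the 49 such genes at 100 CPM or more, oma-1 included, 27 lay below it, and their median was -1.24. Its neighbours had few reads. None of its 5 nearest protein-coding genes on either side reached 5 CPM in either column. The highest was rad-54.L2, with 75 reads in hrde-2 and 89 in control, followed by C27B7.5 with 23 in hrde-2 and 37 in control. spr-2, which begins next to the end of oma-1, had 21 reads in hrde-2 and 20 in control. The close paralog oma-2 had 44 reads in hrde-2 and 66 in control, a ratio of 0.696 (0.464 to 1.03) whose interval includes 1.

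**Figure D1:**
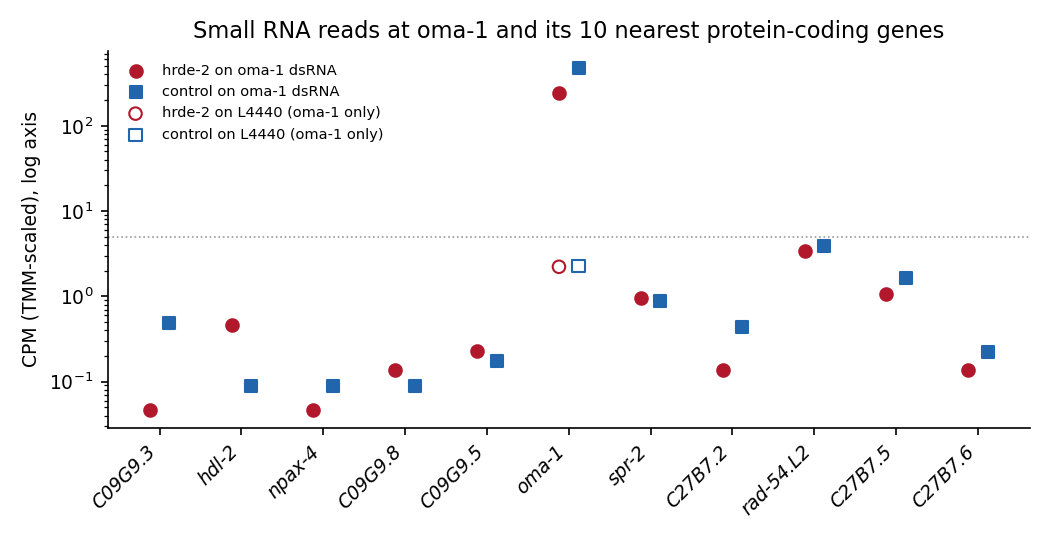
Small RNA level (CPM, log axis) at oma-1 and its 10 nearest protein-coding genes in chromosome order, hrde-2 as circles and control as squares, filled on oma-1 dsRNA and open on L4440 (oma-1 only). oma-1 stands at 241 CPM in hrde-2 and 478 CPM in control, and every neighbour lies under the dotted line at 5 CPM.

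Across the genome, hrde-2 animals differed from controls in both directions. Of 2130 features compared, 292 (13.7%) were higher in hrde-2 and 594 (27.9%) were lower, and 1244 were within 2-fold. Among the 1041 unmarked protein-coding genes, 147 (14.1%) were higher and 259 (24.9%) were lower. The balance of the directions follows the scaling: with gene-assigned totals alone 91.0% of the called features were higher, with the authors' factors 71.3%, and with TMM 33.0%. Under every one of 8 scalings 146 of these protein-coding genes were 2-fold higher and 61 were 2-fold lower. A feature that reaches 5 CPM in only 1 column is likely to be called, and of the 578 protein-coding genes that reached it in both columns 42 were higher and 112 were lower.

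The difference varied with the level of the gene. Protein-coding genes at 5 to 10 CPM had a median log2 difference of -0.18 (602 genes), those at 10 to 25 CPM of -0.33 (274 genes), those at 25 to 100 CPM of -0.82 (116 genes) and those above of -1.24 (49 genes). The shift of 1.03 with gene-assigned totals alone would take the first 3 of these medians above 0. As a description of the called sets, which the call itself shapes, the higher genes had medians of 10.3 CPM in hrde-2 and 2.98 CPM in control. The lower genes had medians of 4.22 CPM in hrde-2 and 13.9 CPM in control. Median gene spans were 2882 bp for the higher genes, 2291 bp for the lower genes and 3394 bp for the others. Chromosomes V and X had the largest shares of higher genes, 36 of 182 (19.8%) and 19 of 95 (20%) compared genes, beside 14.1% over all such genes. Several higher genes on these chromosomes had nearly the same counts, as given below, so these shares may count some reads more than once. The shares of lower genes were 21.4% on V and 27.4% on X, beside 24.9% over all. On chromosomes I to IV the share of higher genes lay between 11.7% and 12.8%.

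**Figure D2:**
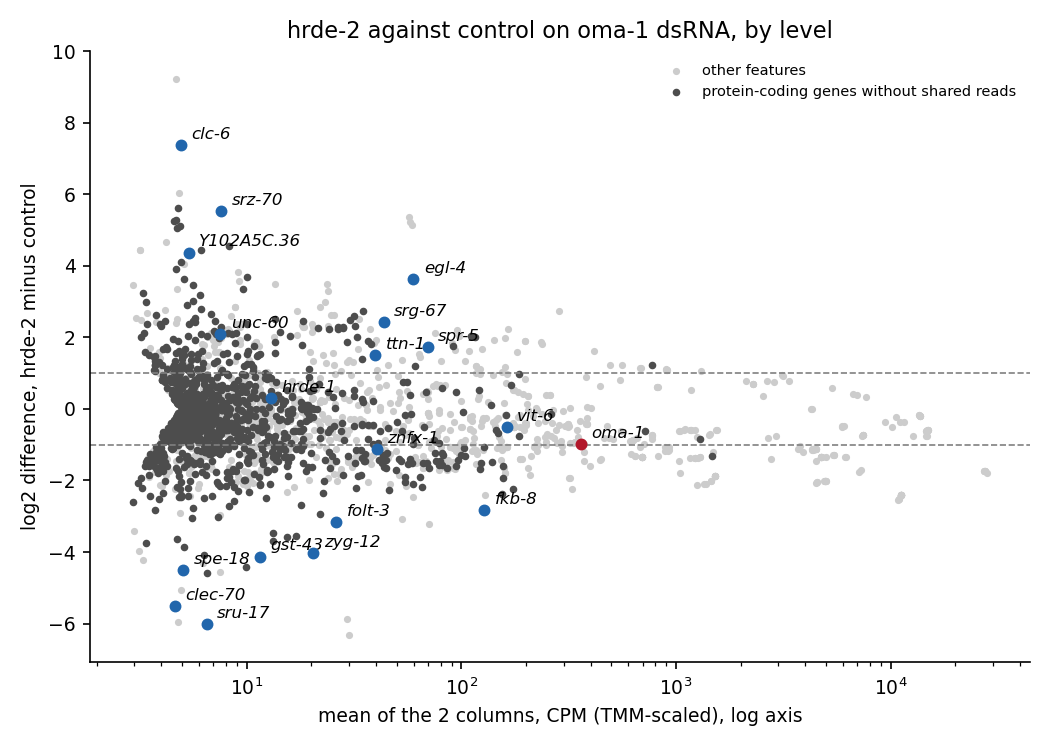
Log2 difference (hrde-2 minus control) on oma-1 dsRNA against the mean level of both columns (CPM, log axis) for the 2130 features compared, with the dashed lines at 2-fold. oma-1 (red) lies at -0.99 among abundant genes that are mostly below 0, while egl-4 and spr-5 are abundant genes above the upper line. The heights of all points depend on the scaling.

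The 6 genes at 100 CPM or more in either column that were 2-fold higher in hrde-2 were picked out after their values were seen. egl-4, a cGMP-dependent protein kinase with roles in olfactory adaptation and body size, had 2417 reads in hrde-2 and 203 reads in control, a ratio of 12.4 (10.8 to 14.4). Its interval is far from 1, and on L4440 it had 182 CPM in hrde-2 and 9.66 CPM in control. unc-53, needed for cell and axon migration, had 4056 reads in hrde-2 and 1046 in control, a ratio of 4.05 (3.78 to 4.34). tftc-1, a subunit of an RNA polymerase III initiation factor, had 3086 reads in hrde-2 and 956 in control. spr-5, a histone demethylase whose loss makes germlines mortal over generations, had 2336 reads in hrde-2 and 733 in control, a ratio of 3.33 (3.06 to 3.62). Y66H1A.5 had 3886 reads in hrde-2 and 991 in control, counts close to those of unc-53 in all 4 columns, so that the pair may not be separate. gly-4, an enzyme that starts O-linked glycosylation, was the most abundant of them with 23527 reads in hrde-2 and 10464 in control, a log2 difference of 1.23. By the TMM scale its log2 difference on L4440 was -0.13, so that gly-4 was the 1 of the 6 with near-equal levels on that food.

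At the other end of the abundant genes, fkb-8, which encodes an FK506-binding protein, had 687 reads in hrde-2 and 5105 in control, a ratio of 0.141 (0.130 to 0.152). sqst-1, an autophagy receptor, had 1266 reads in hrde-2 and 4268 in control. Its counts were close to those of B0250.8 and T09F5.12 in all 4 columns, so these genes may not be separate. laf-1, a DEAD-box RNA helicase of P granules, had 885 reads in hrde-2 and 2530 in control. rtcb-1, an RNA ligase that acts on tRNAs, had 785 reads in hrde-2 and 2334 in control, counts close to those of rom-4 in all 4 columns. These 4 were 2-fold lower by the TMM scale, at log2 differences of -2.83, -1.69, -1.45 and -1.51 in this order. With gene-assigned totals alone, each would lie 1.03 higher, which leaves fkb-8 alone of the 4 past 2-fold. On L4440 the differences by the TMM scale were -2.46 at fkb-8, -1.20 at sqst-1, -0.59 at laf-1 and -0.68 at rtcb-1. The last 2 genes were thus within 2-fold on that food. By the TMM scale, the abundant yolk protein genes, targets in the intestine, were close to equal. vit-5 had 5401 reads in hrde-2 and 6219 in control, a log2 difference of -0.14, and vit-2 had 3299 in hrde-2 and 3913 in control. The shift of 1.03 with gene-assigned totals alone would make both of these genes higher in hrde-2. vit-6 was the lowest of the family, with 2914 reads in hrde-2 and 4359 in control, a difference of -0.52 that turns positive with gene-assigned totals alone.

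The 12 unmarked protein-coding genes that stood highest, ranked by the lower end of the ratio's interval, were clc-6, srz-70, nhr-112, F35E8.13, F35E8.10, M60.6, C04E6.4, unc-69, C50D2.6, Y102A5C.36, egl-4 and hpo-36. clc-6, a claudin-like gene, had 214 reads in hrde-2 and 1 read in control, a ratio with the wide interval of 39.7 to 8868. nhr-112, a nuclear hormone receptor, had 205 reads in hrde-2 and 4 in control. srz-70, a chemoreceptor gene, had 326 reads in hrde-2 and 7 in control, and unc-69, a gene for axon outgrowth, had 345 in hrde-2 and 15 in control, counts close to those of srz-70 in all 4 columns. Apart from egl-4, the 12 had at most 15 reads in control on oma-1 dsRNA and at most 12 in control on L4440. Y102A5C.36 had 224 reads in hrde-2 and 11 in control, and on L4440 it had 14.1 CPM in hrde-2 and 0.43 CPM in control.

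A band of 9 high features had nearly the same number of reads. clc-6, nhr-112, F35E8.10, F35E8.13, C04E6.4, M60.6, hpo-36, the pseudogene F09F3.8 and the piRNA gene 21ur-3483 had 195 to 214 reads in hrde-2 and 0 to 12 in control. On L4440 they had 351 to 377 reads in hrde-2 and 1 to 10 in control. They lie on chromosomes IV, V and X, and whether they share reads was not tested. 21ur-3483 had 205 reads in hrde-2 and none in control, a ratio whose interval begins at 57.5. These 9 were noticed in the data and cannot be taken as separate examples of a difference. Over all called genes, 71 of the 147 higher and 127 of the 259 lower had at least 1 other feature with close counts in all 4 columns.

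The 12 lowest protein-coding genes by the same ranking were sru-17, clec-70, Y67A10A.3, C40A11.7, zyg-12, spe-18, gst-43, rsef-1, W01A11.7, F13E6.2, Y61A9LA.4 and C25D7.5. sru-17, a chemoreceptor gene, had 4 reads in hrde-2 and 293 in control, a ratio of 0.014 (0.004 to 0.037). clec-70, a C-type lectin, had 4 reads in hrde-2 and 206 in control, and the pseudogene ZK783.6 had 6 in hrde-2 and 219 in control, counts close to those of clec-70. zyg-12, whose product ties the centrosome to the nucleus, was the most covered of the 12 in control, with 51 reads in hrde-2 and 879 in control, a ratio of 0.061 (0.045 to 0.080). spe-18, a gene of sperm development, had 9 reads in hrde-2 and 221 in control. gst-43, a glutathione S-transferase, had 27 reads in hrde-2 and 498 in control, and rsef-1, a Rab-like GTPase with EF hands, had 15 in hrde-2 and 273 in control. All 12 kept a 2-fold lower level with each of the scalings tried, since the smallest of their differences on the TMM scale was -3.56.

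Several of the lower loci lay side by side, a feature the ranking did not use. On chromosome V, 5 called features within 15032142 to 15059599 were lower: C25D7.12 with 25 reads in hrde-2 and 197 in control, C25D7.14 with 13 in hrde-2 and 327 in control, C25D7.2 with 13 in hrde-2 and 273 in control, C25D7.5 with 14 in hrde-2 and 217 in control, and the replication helicase gene mcm-3 with 90 in hrde-2 and 300 in control. C25D7.14 and C25D7.2 are pseudogenes of equal length, 1041 bp, on opposite strands, and their reads may not be separate. C25D7.2 also had counts close to those of C40A11.7 on chromosome II, which had 11 reads in hrde-2 and 286 in control. The reads at C25D7.2 may thus not be particular to chromosome V, and C40A11.7 may not be a separate lower gene. The dosage compensation gene sdc-3 lies between C25D7.2 and C25D7.5 and was not lower, with 87 reads in hrde-2 and 69 in control, a ratio of 1.32 (0.949 to 1.83). The pseudogene T04A11.14, which begins 28 bp past the end of sru-17 on the same strand, had 7 reads in hrde-2 and 143 in control. This region and these neighbours were noticed in the data. The mutated gene hrde-2 itself lies at V:15005100-15006400, close to the start of the chromosome V region. Whether that position bears on the levels in the region was not tested.

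Genes of the small RNA machinery, themselves targets of small RNAs, mostly had close levels in both strains by the TMM scale. Of 66 matched, 19 could be compared, none was 2-fold higher and 2 were lower, beside 13.7% and 27.9% over all features. The median log2 difference was 0.10 beside -0.39 over all features. For these 19 genes it ranged from 0.09 to 1.13 over the scalings, so how close the levels are depends on the scaling. At a mean of 1 CPM over both columns 52 could be compared, with a median of -0.05. The 2 were znfx-1, a helicase of the Z granule that acts in RNAi inheritance, with 553 reads in hrde-2 and 1262 in control, and nrde-1, a nuclear RNAi factor, with 51 in hrde-2 and 128 in control. Both lie near the 2-fold line, at -1.13 and -1.26, and pass it only with TMM or scalings close to it. hrde-1, whose allele is common to both strains, had 312 reads in hrde-2 and 266 in control, a ratio of 1.23 (1.04 to 1.45). eri-3 had the highest value, 127 reads in hrde-2 and 86 in control, at 0.62. prg-1, the piRNA Argonaute, had 345 reads in hrde-2 and 275 in control, and csr-1, the Argonaute of licensed germline genes, had 255 in hrde-2 and 288 in control.

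Endogenous targets that are often used to follow nuclear RNAi were not lower in hrde-2. All 4 such genes listed were compared and lay above 0, although 3 of them reached 5 CPM in hrde-2 alone. bath-45 had 912 reads in hrde-2 and 819 in control, a log2 difference of 0.22, and bath-13 had 130 in hrde-2 and 91 in control, at 0.58. C38D9.2 had 330 reads in hrde-2 and 66 in control, and F15D4.5 had 944 in hrde-2 and 100 in control, both 2-fold higher. C38D9.2 and F15D4.5 carry the mark for shared reads, and F15D4.5 has counts near-equal to those of mir-241. Of 19 targets of the ERGO-1 pathway, which loads 26G RNAs made in oocytes and embryos, 13 were compared, with a median of 0.24. Of these, 1 was higher and 1 was lower, beside 13.7% and 27.9% over all features. T08B6.2 was higher, with 140 reads in hrde-2 and 27 in control, and E01G4.5 was lower, with 205 in hrde-2 and 475 in control. C44B11.6 was the most covered of them, with 1423 reads in hrde-2 and 1130 in control, a difference of 0.40.

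Among genes of the oocyte programme to which oma-1 belongs, 18 of 38 were compared. Of these, 1 was higher and 1 was lower, beside 13.7% and 27.9% over all features. The list median was -0.31. That median ranged from -0.32 to 0.72 over the scalings, so its direction is not fixed, and 8 of the 18 genes reached 5 CPM in control alone against 1 in hrde-2 alone. perm-4, which acts in eggshell formation, was lower, with 64 reads in hrde-2 and 181 in control. daz-1, an RNA-binding protein of oogenesis, was higher, with 1336 reads in hrde-2 and 391 in control, and it carries the mark for shared reads. cey-3 had 83 reads in hrde-2 and 142 in control. Chromosome segregation genes, which are typical targets of the CSR-1 pathway, had a median of -0.51 over 16 of 37 genes, with zyg-12 alone past 2-fold. That median became 0.52 with gene-assigned totals alone. The microtubule factor zyg-9 had 111 reads in hrde-2 and 181 in control, at -0.64.

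Major sperm protein genes, which encode the cytoskeletal protein of worm sperm, lay mostly above 0. Of 31 such genes, 26 were compared, 12 were 2-fold higher and none was lower, beside 13.7% and 27.9% over all features. The median of 0.98 kept its sign under every scaling. All 26 reached 5 CPM in the hrde-2 column alone, so these counts favour higher values by the way members were taken. At a mean of 1 CPM over both columns, which favours neither strain, all 31 could be compared, 30 lay above 0 and the median was 0.96. The same level left 5046 unmarked protein-coding genes, of which 2037 lay above 0, with a median of -0.15. Over all 31 genes the summed reads were 4541 in hrde-2 and 2389 in control. Their differences ran from 0.63 at msp-45, with 147 reads in hrde-2 and 99 in control, to 1.60 at msp-81, with 111 in hrde-2 and 38 in control. msp-33 had 165 reads in hrde-2 and 60 in control, and msp-56 had 185 in hrde-2 and 73 in control. On L4440 the median over the same genes was 0.58. The family shares most of its sequence, so the 26 genes may count the same reads more than once, and 5 carry the mark for it. Of 90 spermatogenesis genes 27 were compared, which are the same 26 major sperm protein genes and spe-18. The only other sperm gene compared, spe-18, was thus lower, with its level in hrde-2 near 0.

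Among targets expressed in somatic tissue, muscle genes lay mostly above 0. Of 30 muscle genes 12 were compared, with 2 higher and none lower, beside 13.7% and 27.9% over all features. The muscle median of 0.46 stayed positive under every scaling, and at a mean of 1 CPM 23 of 27 lay above 0. On L4440 the median of the 12 genes was 0.14, and 7 of them lay above 0. unc-60, which encodes worm cofilin, had 267 reads in hrde-2 and 65 in control, and the titin gene ttn-1 had 1280 in hrde-2 and 471 in control. unc-54, the main body wall myosin, had 588 reads in hrde-2 and 378 in control, at 0.70. Of 29 intestinal genes 9 were compared, with asp-1, an aspartyl protease, higher at 582 reads in hrde-2 and 281 in control and a median of -0.02. Of 37 neuronal genes 5 were compared. mec-12, a tubulin of touch neurons, was higher, with 132 reads in hrde-2 and 17 in control, as was the glutamate transporter gene eat-4, with 123 in hrde-2 and 55 in control. The synaptic gene unc-10 was lower, with 106 reads in hrde-2 and 412 in control.

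Ribosomal protein genes lay mostly above 0 under every scaling, and histone genes mostly below 0 except with gene-assigned totals alone. Of 81 ribosomal protein genes 57 were compared, 8 were 2-fold higher and none was lower. The share of higher genes was near the 13.7% over all features, while 27.9% of all features were lower. The list median was 0.52 beside -0.39 over all features, and it kept its sign under every scaling but was -0.23 on L4440. Of these 57, 17 reached 5 CPM in hrde-2 alone, and at a mean of 1 CPM 63 of 78 lay above 0 with a median of 0.53. rla-1 had 251 reads in hrde-2 and 90 in control, and rps-9 had 178 in hrde-2 and 64 in control. rpl-41.1 was at the low end, with 205 reads in hrde-2 and 399 in control. Of 72 histone genes 61 were compared, none was higher and 24 were lower, beside 13.7% and 27.9% over all features. The histone median was -0.81, which became 0.22 with gene-assigned totals alone. At a mean of 1 CPM 13 of 70 lay above 0, with a median of -0.55. his-32 had 893 reads in hrde-2 and 2756 in control, at -1.56. Many histone genes are near-identical copies, and 32 of the 61 carry the mark for shared reads. The 29 unmarked genes had 12 lower and a median of -0.57. On L4440 the histone median was -1.10.

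**Figure D3:**
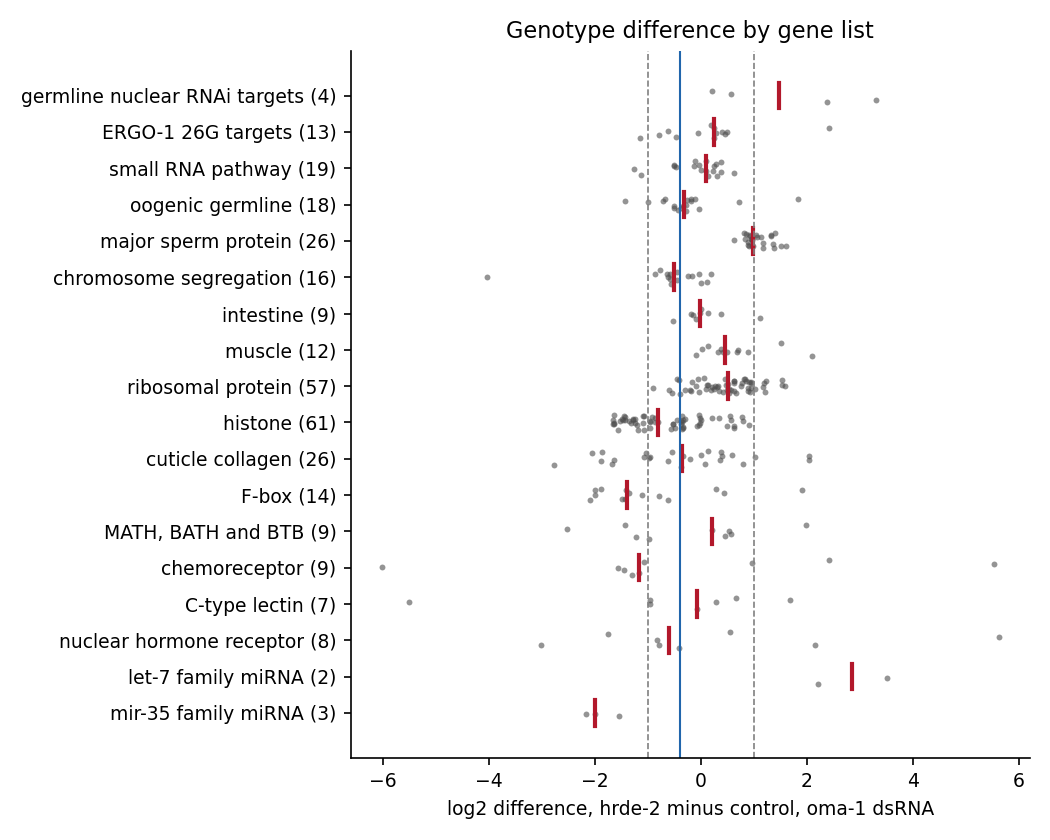
Log2 differences (hrde-2 minus control) on oma-1 dsRNA of the compared members of 18 gene lists, with the number of members in brackets, the list median as a red bar, the median of all features (-0.39) as a blue line and dashed lines at 2-fold. The 26 major sperm protein genes shown, which reached 5 CPM in hrde-2 alone, lie above 0 under every scaling, and the F-box and histone medians lie below the blue line. Gene-assigned totals alone would move every point 1.03 to the right, which takes the histone median above 0.

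Large gene families that evolve fast in worms held members on both sides. Of 322 F-box genes, which encode adaptors for protein degradation, 14 were compared, with 1 higher, 9 lower and a median of -1.38, beside 13.7% higher and 27.9% lower over all features. The 9 without the mark for shared reads had 1 higher, 4 lower and a median of -0.78. fbxc-44 had 61 reads in hrde-2 and 272 in control, and fbxb-14 had 508 in hrde-2 and 1969 in control. fbxa-56 was the 1 higher member, with 1260 reads in hrde-2 and 351 in control. With those 14 members the median stayed below 0 under every scaling, and on L4440 it was -0.45. Of the 14, 4 reached 5 CPM in control alone and 0 in hrde-2 alone, so the way members were taken favours lower values. At a mean of 1 CPM 50 members could be compared, 23 lay above 0 and the median was -0.12. The low median thus depends on how members were taken. Of 89 MATH, BATH and BTB genes 9 were compared, with math-1 higher at 259 reads in hrde-2 and 68 in control, and bath-28 lower at 25 in hrde-2 and 151 in control. Of 1309 chemoreceptor genes only 9 reached the level, with 2 higher and 6 lower and a median of -1.17. Of these 9, 3 carry the mark for shared reads, and the 6 unmarked genes had 2 higher, 3 lower and a median of -0.10, against 0.15 over the 34 at a mean of 1 CPM. srg-67 had 1598 reads in hrde-2 and 311 in control, a log2 difference of 2.42, beside the extremes sru-17 and srz-70 named above.

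Nuclear hormone receptor genes, transcription factors of which worms have many, had few members at this level. Of 271 such genes, 8 were compared, with 2 higher, 2 lower and a median of -0.60, which is too few to set apart from the shares of 13.7% and 27.9% over all features. nhr-25, which acts in moulting and development, had 511 reads in hrde-2 and 119 in control. nhr-249 had 35 reads in hrde-2 and 297 in control, and nhr-204 had 85 in hrde-2 and 299 in control. Of 240 C-type lectin genes 7 were compared. clec-215 was higher, with 142 reads in hrde-2 and 46 in control, and clec-70 was lower, as given above. Of 175 cuticle collagen genes 26 were compared, with 3 higher, 8 lower and a median of -0.35, shares close to those over all features. At a mean of 1 CPM 43 of 73 lay above 0 and the median was 0.26, so the direction of the list turns with the level. The medians of the receptor, lectin and collagen lists all turn positive with gene-assigned totals alone. col-102 and col-107 had 3410 and 3416 reads in hrde-2 and 865 and 870 in control, near-equal counts that mark shared reads. col-38 was the lowest collagen gene, with 31 reads in hrde-2 and 224 in control.

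rRNA and snRNA genes, whose products form ribosomes and spliceosomes, had low medians by the TMM scale. Of 21 rRNA genes compared 15 (71.4%) were lower, and the class median was -2.41. Of 67 snRNA genes 36 (53.7%) were lower and 2 (2.99%) higher, with a median of -1.10. Of 242 tRNA genes 85 (35.1%) were lower and 8 (3.31%) higher, with a median of -0.61. Of 76 snoRNA genes 17 (22.4%) were lower and 14 (18.4%) higher, with a median of -0.21. The snRNA gene T20D3.13 had 11057 reads in hrde-2 and 49833 in control. It carries the mark for shared reads, with counts near-equal to those of T20D3.12, which it overlaps. The class counts were not split by that mark, so they may count the same reads more than once. Among snoRNA genes Y38F2AR.14 had 10770 reads in hrde-2 and 1695 in control, while F28C6.11 had 297 in hrde-2 and 2896 in control. The 145 pseudogenes compared had 20 (13.8%) higher and 43 (29.7%) lower and a median of -0.48. The pseudogene shares are close to the 13.7% higher and 27.9% lower over all features. The shift of 1.03 with gene-assigned totals alone would take the tRNA, snoRNA and pseudogene medians above 0 and the snRNA median close to 0.

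**Figure D4:**
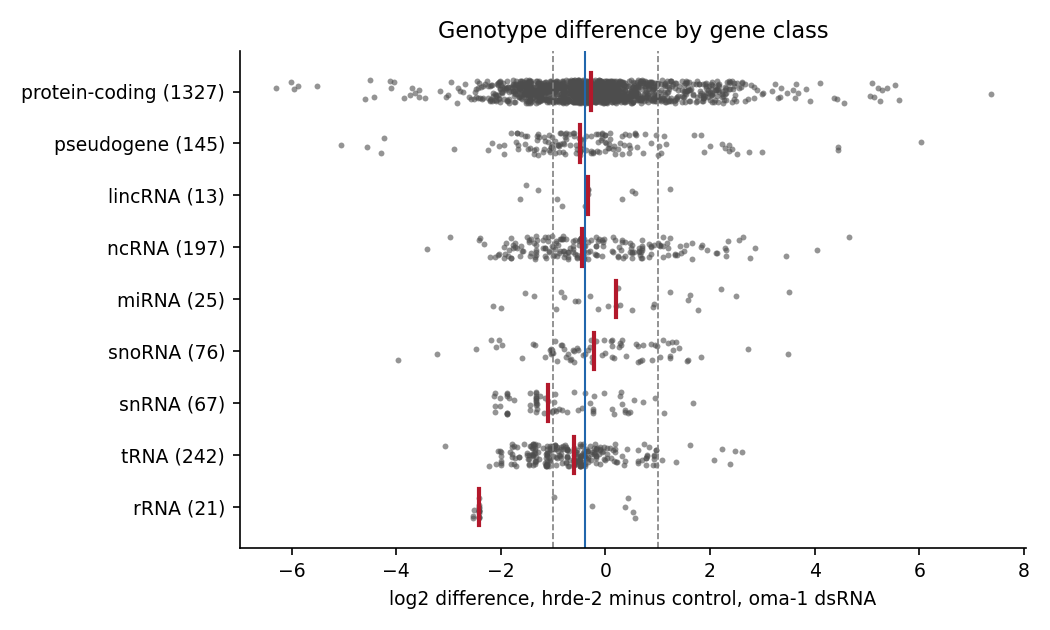
Log2 differences (hrde-2 minus control) on oma-1 dsRNA of the compared features of 9 gene classes, with the number of features in brackets, the class median as a red bar, the median of all features (-0.39) as a blue line and dashed lines at 2-fold. rRNA genes form 2 groups, 15 near the median of -2.41 and the others between -0.98 and 0.57. Gene-assigned totals alone would move every point 1.03 to the right, which takes the protein-coding, tRNA and snoRNA medians above 0 and the snRNA median close to 0.

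microRNA genes, which are made by Dicer without an RNA-dependent RNA polymerase, differed between the strains in both directions. Of 230 annotated, 25 were compared, with 7 (28%) higher, 4 (16%) lower and a median of 0.20. Over all features 13.7% were higher and 27.9% were lower. mir-48, a member of the let-7 family that times larval development, had 3430 reads in hrde-2 and 778 in control, a ratio of 4.60 (4.26 to 4.98). mir-241, its neighbour and relative, had 948 reads in hrde-2 and 87 in control, near-equal to F15D4.5. The clustered mir-64, mir-65 and mir-66 were all higher, with 13655, 15055 and 5978 reads in hrde-2 and 4647, 6665 and 2079 in control. mir-229, which precedes them on the same strand, had 825 reads in hrde-2 and 1242 in control, a difference of -0.53. Of the mir-35 family, which acts in embryos, mir-41 had 442 reads in hrde-2 and 2063 in control, mir-42 had 88 in hrde-2 and 366 in control, and mir-37 had 38 in hrde-2 and 116 in control. mir-44, which lies near mir-42 on the same strand, went the other way. It had 386 reads in hrde-2 and 118 in control, a difference of 1.77 against -1.99 at mir-42. The abundant mir-58a had 12022 reads in hrde-2 and 22481 in control, and mir-82 was near equal, with 8498 in hrde-2 and 8612 in control, a ratio of 1.03. The standard deviation of the 25 log2 differences between the genotypes was 1.44 here and 1.68 on L4440. Between the foods it was 0.45 in hrde-2 and 0.29 in control.

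The genotype difference recurred on L4440, where no trigger was active and other samples were used, though with the same barcode for each strain. Of the 147 protein-coding genes higher with oma-1 dsRNA, 113 (76.9%) were also 2-fold higher on L4440 and 140 had the same sign. Of the 259 lower genes, 161 (62.2%) were 2-fold lower there and 257 had the same sign. These counts use the TMM scale. Under every one of 8 scalings, 113 of the higher genes but only 24 of the lower genes were 2-fold different on both foods, so most of the recurrence of lower genes depends on the scaling. Counted from L4440, 121 of its 143 higher genes (84.6%) and 149 of its 200 lower genes (74.5%) were 2-fold different in the same direction with the trigger. On that food 13.8% of the protein-coding genes were higher and 19.2% were lower. None of these higher or lower genes was 2-fold opposite on L4440. Across the 1041 genes the genotype differences with the trigger ran from -1.64 at the 10th percentile to 1.47 at the 90th percentile. The food differences, which use the same columns, ran between the same percentiles from -0.29 to 0.45 in hrde-2 and from -0.47 to 0.56 in control.

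**Figure D5:**
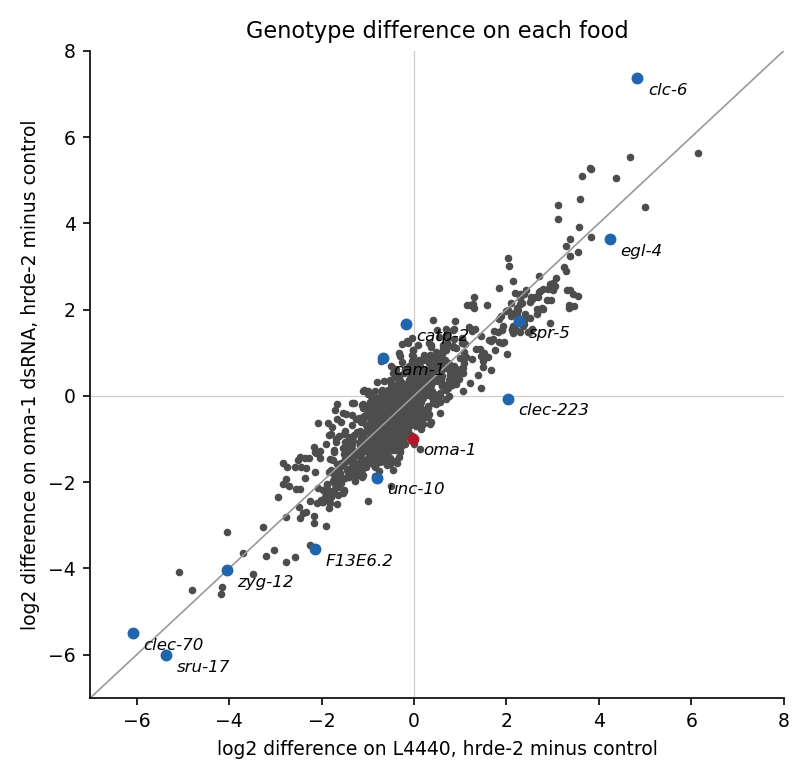
Log2 differences (hrde-2 minus control) of the 1041 unmarked protein-coding genes on oma-1 dsRNA (vertical) and on L4440 (horizontal), with the line of equality. Most genes lie along the line, from sru-17 and clec-70 at the lower left to clc-6 at the upper right, while oma-1 (red) is at -0.99 with the trigger and -0.03 without it. Another scaling shifts all points along an axis.

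A few genes departed from the line of equal difference, and whether these gaps exceed replicate spread was not tested. Levels are in CPM here, because the L4440 columns differ in depth. clec-223 had 5.50 CPM in hrde-2 and 5.75 CPM in control with the trigger, a log2 difference of -0.06, and 7.57 CPM in hrde-2 and 1.83 CPM in control on L4440, a difference of 2.04. catp-2, a P-type ATPase subunit, had 7.84 CPM in hrde-2 and 2.46 CPM in control with the trigger, a difference of 1.67, and 2.98 CPM in hrde-2 and 3.36 CPM in control on L4440, a difference of -0.17. cam-1, a Ror receptor tyrosine kinase, had 6.05 CPM in hrde-2 and 3.29 CPM in control with the trigger, a difference of 0.88, and 2.94 CPM in hrde-2 and 4.71 CPM in control on L4440, a difference of -0.68. F13E6.2 was lower in hrde-2 on both foods, with 2.66 CPM in hrde-2 and 31.5 CPM in control with the trigger, a difference of -3.56, and 4.36 CPM in hrde-2 and 19.3 CPM in control on L4440, a difference of -2.14. Beside these, the genotype difference at oma-1 by the TMM scale was -0.99 with the trigger and -0.03 on L4440, a gap of -0.96.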

How the data were processed

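Small RNA libraries were made from adult whole animals, with small RNAs enriched by a mirVana kit, cloned by a method independent of a 5′ monophosphate and sequenced on a NextSeq500, per the labels' protocols. HTSeq 0.6.1 is named in the submitters' processing notes, while the aligner, build, strand setting and handling of reads with several matches are not stated there. The deposited table holds raw read counts per gene in 1 column per group of 3 samples, and how the samples were merged is not stated. The authors also deposited a normalized signal, which equals the count divided by 1 constant per column and was used here only as the alternative called the authors' factors.

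Because each group has 1 column, the planned edgeR test could not be used and no p-value was computed. Rows that name no gene (65.2% of the reads in hrde-2 and 59.9% in control on oma-1 dsRNA) were left out. TMM factors from edgeR 4.0.16 were computed on 16329 features kept by filterByExpr (minimum count 10, minimum total 15). Log2 differences used a prior count of 0.5. A feature was compared at 5 CPM in the higher column and called at 2-fold. Ratios carry exact conditional binomial intervals, levels have exact Poisson intervals, and Wilson intervals go with shares. Positions and classes come from an annotation of build WBcel235, which matched 46364 of 46726 identifiers. A gene was marked as sharing reads if it overlaps a tRNA, rRNA, snRNA, snoRNA or miRNA gene, or if another gene had counts within 5% or 15 reads in all 4 columns at 1000 reads or more in total. Close counts mean within 10% or 12 reads. The script that makes the comparisons was checked on simulated counts.

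The members and gene lists were chosen with earlier results of these data known. Named genes are oma-1, oma-2, hrde-1, hrde-2, the 5 nearest protein-coding genes on each side of oma-1, the 12 highest and 12 lowest protein-coding genes by the interval end nearer to 1, up to 4 per gene class and direction, and up to 4 members of a list, with others chosen after their values were seen. Alternatives were 3 reference scalings (gene-assigned totals, DESeq2 1.42.0 size factors and the authors' factors), TMM on other gene sets, other filters, levels and prior counts. For gene lists a level of 1 CPM as the mean of both columns, which favours neither strain, was added after seeing the data. The neuronal, muscle, intestinal and sperm lists give small RNA targets of those tissues and no tissue make-up.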

Additional observations from a re-analysis of the deposited data

Results flagged for a closer look

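By the TMM scale, the snoRNA gene C27H6.5 (V:9970204-9970271) was 2-fold different in opposite directions on the 2 foods. It had 808 reads in hrde-2 and 408 in control on oma-1 dsRNA, a log2 difference of 1.05, and 640 reads in hrde-2 and 318 in control on L4440, a difference of -1.02 after scaling. Before scaling, hrde-2 had more reads than control on both foods. Gene-assigned reads on L4440 numbered 39077097 in hrde-2 and 25323188 in control. With these totals alone the gene would be higher in hrde-2 on L4440 too, so the opposite direction depends on the scaling. The difference between the foods was not tested.

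Reads outside the gene counts were a large share of the libraries. Reads at no annotated feature made up 20.6% of all reads in hrde-2 on oma-1 dsRNA and 17.6% in control. Ambiguous reads made up 42.4% in hrde-2 and 40.4% in control, and reads not aligned 2.20% in hrde-2 and 1.92% in control. The Wilson intervals of these shares are at most 0.029 percentage points wide. On L4440 the shares at no feature were 21.4% in hrde-2 and 17.8% in control. Which sequences these reads hold was not analysed here.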

How the results depend on the processing

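The size factor set the outcome more than any other choice. With gene-assigned totals alone, 1026 features were higher in hrde-2 and 101 lower, and for protein-coding genes with no mark for shared reads the counts were 603 and 53. With the authors' factors, these counts were 582 higher and 234 lower over all features and 300 and 109 among those genes. A stricter filter on low counts, applied before TMM, left 215 features lower, 77 of them protein-coding and unmarked. A level of 10 CPM gave 188 higher features, with 75 unmarked protein-coding genes higher and 162 lower. The log2 difference at oma-1 was 0.041 with gene-assigned totals alone, -0.43 with the authors' factors and -0.56 with the stricter filter. The median of the F-box list, with its members chosen anew at the level, turned to 0.67 with gene-assigned totals alone, where more genes reach the level. DESeq2 size factors, miRNA genes as the reference, TMM on protein-coding genes, no filter and a prior count of 2 kept all counts within 1.5 times and oma-1 between -1.002 and -0.974. A level of 5 CPM taken as the mean of the 2 columns, chosen after seeing the data, gave 224 higher and 503 lower features. Lists taken at 1 CPM as the mean of the 2 columns, also chosen after seeing the data, kept the sign of the sperm protein, ribosomal protein and histone medians, and turned the chemoreceptor median to 0.15, cuticle collagen to 0.26, MATH, BATH and BTB to -0.16, the small RNA pathway to -0.05, neuronal to -0.0045 and intestine to 0.09. Among the 149 other results, the F-box and chemoreceptor medians were the only ones of 2-fold or more to reverse under the alternatives run.

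No paired analysis was possible because each group of 3 numbered samples was deposited as 1 column. Leaving out a replicate was not run for the same reason. Counts under about 100 reads carry wide intervals, as at clc-6.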
